A study of Homo sapiens with 9 samples.

Results

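The genes described here encode ligands of the epidermal growth factor (EGF) receptor family. They are AREG, EREG, HBEGF, TGFA, BTC, EGF and NRG1, taken as a list of names by family membership, with earlier results of these data known. All 7 were found among the 26475 gene symbols of the count table, and all 7 passed the filter on low counts that left 16417 genes to test. The cells were A375, a human melanoma line with an activating mutation in BRAF, and they were kept for 24 h with DMSO, the vehicle, or with TP-472 at 5 µM or at 10 µM. TP-472 inhibits BRD9 and BRD7, bromodomain subunits of SWI/SNF chromatin remodelling complexes. Each group held 3 libraries, described by the submitters as biological replicates, so all values come from 1 cell line at 1 time point.

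EGF family ligands are made as membrane-spanning precursors and are cut free by metalloproteases, mainly ADAM17 and ADAM10. The released ligand binds a receptor on the same or a neighbouring cell, receptor molecules pair, and the signal passes through adaptors to RAS, RAF, MEK and ERK. AREG, EREG, TGFA, HBEGF, BTC and EGF bind EGFR, and EREG, HBEGF and BTC also bind ERBB4. NRG1, a neuregulin, binds ERBB3 and ERBB4 rather than EGFR, so the name EGF receptor ligand holds for it only in the sense of the receptor family. In melanoma cells with mutant BRAF, signalling through EGFR and ERBB3 is known as a route by which cells tolerate inhibitors of the ERK pathway.

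The ligand genes lie apart in the genome, except for a group on chromosome 4. In GRCh38 coordinates of GENCODE release 29, EREG spans chr4:74365143-74388751 and AREG chr4:74445134-74455009, both on the plus strand, with 56.4 kb between them. BTC follows at chr4:74744759-74794686 on the minus strand, 290 kb beyond AREG. EGF is on the same chromosome at chr4:109912884-110012266, HBEGF at chr5:140332843-140346631 and TGFA at chr2:70447280-70554193. In this annotation 0% of the exonic bases of each of the 7 genes overlapped an exon of another gene on either strand, so no position was shared with a neighbour or an antisense gene listed there.

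The promoters of AREG, EREG and HBEGF are shown because AREG and HBEGF rose with TP-472 while EREG, the nearest family neighbour of AREG, stayed at a few counts. Each line holds the 100 bases just before the gene start, read 5′ to 3′ on the gene's strand from RefSeq on GRCh38.p14 (AREG chr4:74445034-74445133 on the plus strand, EREG chr4:74365043-74365142 on the plus strand, HBEGF chr5:140346632-140346731 on the minus strand). Capitals mark the cAMP response element TGACGTCA and the TATA box TATAAA.
AREG: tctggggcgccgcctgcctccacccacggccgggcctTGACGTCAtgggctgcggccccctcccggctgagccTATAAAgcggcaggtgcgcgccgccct
EREG: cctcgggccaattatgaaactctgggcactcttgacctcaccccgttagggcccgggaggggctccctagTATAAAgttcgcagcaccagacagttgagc
HBEGF: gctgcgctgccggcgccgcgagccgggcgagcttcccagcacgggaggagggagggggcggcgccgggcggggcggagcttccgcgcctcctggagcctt

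Of these bases 75% were G or C in AREG, 58% in EREG and 81% in HBEGF. AREG alone of the ligand promoters searched held the whole element TGACGTCA, which began 65 bases before the RefSeq start. It is present on either strand in 1.65% of the 35116 RefSeq promoter windows of 250 bases. AREG, at 29 bases, and EREG, at 32 bases before the start, both held TATAAA, found in 10.7% of promoters. The core TGACG, which is part of TGACGTCA and is found in 21.2% of promoters, lay 125 bases before the start of EREG. TGFA had more than 1 entry. TGACG lay 154 bases before the start in its window chr2:70553827-70554076 and was absent from its window chr2:70553447-70553696. EGF held the AP-1 letters TGANTCA (6.57% of promoters) 17 bases before its start. No ligand window held the EGR letters GCGTGGGCG (0.72% of promoters), and HBEGF and BTC held none of these motifs. Promoter entries were found for 6 of the 7 ligand genes, 7 entries in all, and the window of NRG1 was not used here. These are matches of letters only, and binding was not measured.

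The libraries held 42483091 to 51298130 counts, and levels are given as CPM, counts scaled to the size of each library. 10 µM replicate 1 stood apart from the other libraries of its group: the chi-square statistic per degree of freedom between it and replicates 2 and 3 was 197.7 and 317.8, against 46.8 between those 2 and at most 59.0 in the other groups. The statistic took in ribosomal RNA genes, which held 8.20% of counts in 10 µM replicate 1, 14.3% in replicate 2 and 19.9% in replicate 3. The part of those genes in it was not tested. No libraries of a group agreed within sampling noise. The lineage factor SOX10 stood at 363 to 426 CPM and MITF at 23.3 to 35.9 CPM in all libraries. The other melanoma markers stood below 10 CPM, with TYR, a pigment enzyme, at 0 in all and DCT at 0 or 1 count. The label of melanoma thus rests here mainly on SOX10 and not on pigment genes. S100A1 was the melanoma marker called lower, at 10 µM. Over 8 melanoma markers the summed level, mostly that of SOX10, was 448 to 468 CPM with DMSO. It was 448 to 462 CPM with the lower dose and 400 to 448 CPM with the higher. Summed over 6 keratinocyte markers it was 7.26 to 8.57, 7.11 to 8.35 and 6.28 to 10.5 CPM, mostly from KRT14. KRT5 stood at 0.131 to 1.76 CPM, and DSG3, KRT1 and TP63 had at most 10 counts. Of the immune markers, CD3E was at 0 in all libraries and PTPRC had 0 to 26 counts. CD68, a lysosomal protein also used as a macrophage marker, stood at 53.3 to 58.7 CPM with DMSO, 83.4 to 84.6 CPM with the lower dose and 87.1 to 130 CPM with the higher, and was called higher at both doses. The part of these marker levels in the ligand results was not tested.

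AREG, amphiregulin, was called higher in all 3 comparisons and had the largest fold change of the 7 ligand genes at 10 µM. The DMSO libraries held 19.1, 20.5 and 19.9 CPM, the 5 µM libraries 35.7, 33.6 and 37.2, and the 10 µM libraries 94.4, 70.9 and 67.7. The 3 groups did not overlap, and each dose step lay above the last. The means ± SD (n = 3 each) were 19.8 ± 0.732, 35.5 ± 1.80 and 77.7 ± 14.6 CPM. In the edgeR quasi-likelihood fit of all libraries, the log2 fold change against DMSO was 0.84 at 5 µM (SE 0.12, adjusted p = 0.00241) and 1.97 at 10 µM (SE 0.13, adjusted p = 3.42e-06). The latter is a rise of 3.91-fold, with a 95% interval of 3.22 to 4.76. From 5 µM to 10 µM the level rose by a further 1.13 on the log2 scale (SE 0.12, adjusted p = 0.000596). The highest of the 10 µM libraries was replicate 1, and without it the change against DMSO was 1.80 and that between the doses 0.96. In bulk RNA, more cells with the transcript and more transcript per cell cannot be told apart.

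HBEGF, heparin-binding EGF-like growth factor, also rose with dose. It stood at 12.0, 11.6 and 12.1 CPM with DMSO, at 16.5, 15.6 and 19.2 CPM at 5 µM and, with 10 µM TP-472, at 29.0, 24.9 and 29.5 CPM. Again the groups did not overlap, and here 10 µM replicate 1 lay within the range of its group. The group means were 11.9 ± 0.280, 17.1 ± 1.85 and 27.8 ± 2.51 CPM (SD, n = 3). At 10 µM the log2 fold change was 1.23 (SE 0.11, adjusted p = 2.44e-05), or 2.34-fold with an interval of 1.98 to 2.76. At 5 µM it was 0.52 (SE 0.11, adjusted p = 0.0132), a fold of 1.44, which is under the minimum of 1.5 set for a call. The step from 5 µM to 10 µM was 0.70 (SE 0.11, adjusted p = 0.00345) and was called.

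NRG1, the ligand of ERBB3 and ERBB4, was called higher at both doses from a lower level. The gene spans chr8:31639386-32767959 on the plus strand in GRCh38. Its libraries held 4.95, 5.08 and 5.53 CPM with DMSO, 8.72, 8.33 and 7.49 CPM at 5 µM, and 10.3, 11.6 and 8.82 CPM at 10 µM. All treated libraries lay above all DMSO libraries, and the lowest 10 µM library was just above the highest 5 µM library. Group means were 5.19 ± 0.305, 8.18 ± 0.626 and 10.2 ± 1.37 CPM (SD, n = 3). The log2 fold changes against DMSO were 0.66 (SE 0.14, adjusted p = 0.0138) and 0.98 (SE 0.14, adjusted p = 0.000466). The 5 µM call was lost when DMSO replicate 1 or 2 or 5 µM replicate 1 or 2 was left out, with log2 fold changes of 0.61 to 0.64 and adjusted p of 0.0568 to 0.0766. Between the doses the difference was 0.32 (SE 0.13, adjusted p = 0.168), with an interval of 0.02 to 0.62.

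TGFA, transforming growth factor alpha, was the most abundant ligand transcript with DMSO and at 5 µM, and its own level was highest at 5 µM. The DMSO libraries held 323, 335 and 341 CPM, the 5 µM libraries 485, 482 and 495 CPM, and the 10 µM libraries 270, 325 and 327 CPM. The 5 µM libraries lay above all others, while the DMSO and 10 µM libraries overlapped. The means were 333 ± 9.35, 487 ± 6.57 and 307 ± 32.4 CPM (SD, n = 3). The log2 fold change at 5 µM was 0.55 (SE 0.08, adjusted p = 0.00260), a fold of 1.46, so it passed the test but not the fold minimum. At 10 µM against DMSO it was -0.12 (SE 0.08, adjusted p = 0.311), with an interval of -0.30 to 0.07. The test of 10 µM against 5 µM gave -0.66 (SE 0.08, adjusted p = 0.00129), a call of lower. Without 10 µM replicate 1, the lowest of its group, that difference was -0.58 (adjusted p = 1.11e-08), just short of the fold minimum of 0.585 on the log2 scale.

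BTC, betacellulin, was seen in 19 to 69 counts per library. Its level was 0.463, 0.700 and 0.662 CPM with DMSO, 1.51, 0.872 and 0.821 CPM at 5 µM, and 0.434, 0.519 and 0.387 CPM at 10 µM. The 5 µM libraries lay above all others, as for TGFA. No comparison passed the test: the log2 fold changes were 0.81 at 5 µM (SE 0.42, adjusted p = 0.284), -0.44 at 10 µM (SE 0.43, adjusted p = 0.469) and -1.25 between the doses (SE 0.43, adjusted p = 0.106). DESeq2, used as an alternative, called the difference between the doses, at -1.24 (adjusted p = 0.0324).

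EGF itself stood at 1.27, 1.32 and 1.25 CPM with DMSO, at 0.832, 1.38 and 1.17 CPM at 5 µM and at 0.950, 1.81 and 0.856 CPM at 10 µM, or 38 to 94 counts. All 3 groups overlapped. The log2 fold changes were -0.18, -0.09 and 0.10 in the 3 comparisons, each with an SE of about 0.37 and adjusted p of 0.831, 0.886 and 0.894. EREG, epiregulin, was near the limit of detection with 4 to 36 counts per library. It stood at 0.402, 0.206 and 0.213 CPM with DMSO, at 0.789, 0.0968 and 0.370 CPM at 5 µM and at 0.0826, 0.250 and 0.306 CPM at 10 µM. Its log2 fold changes against DMSO were 0.60 (SE 0.80, adjusted p = 0.734) and -0.36 (SE 0.82, adjusted p = 0.775). A change of EREG was thus not detectable at these low counts and their spread, from 5 to 36 within the 5 µM group.

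**Figure D1:**
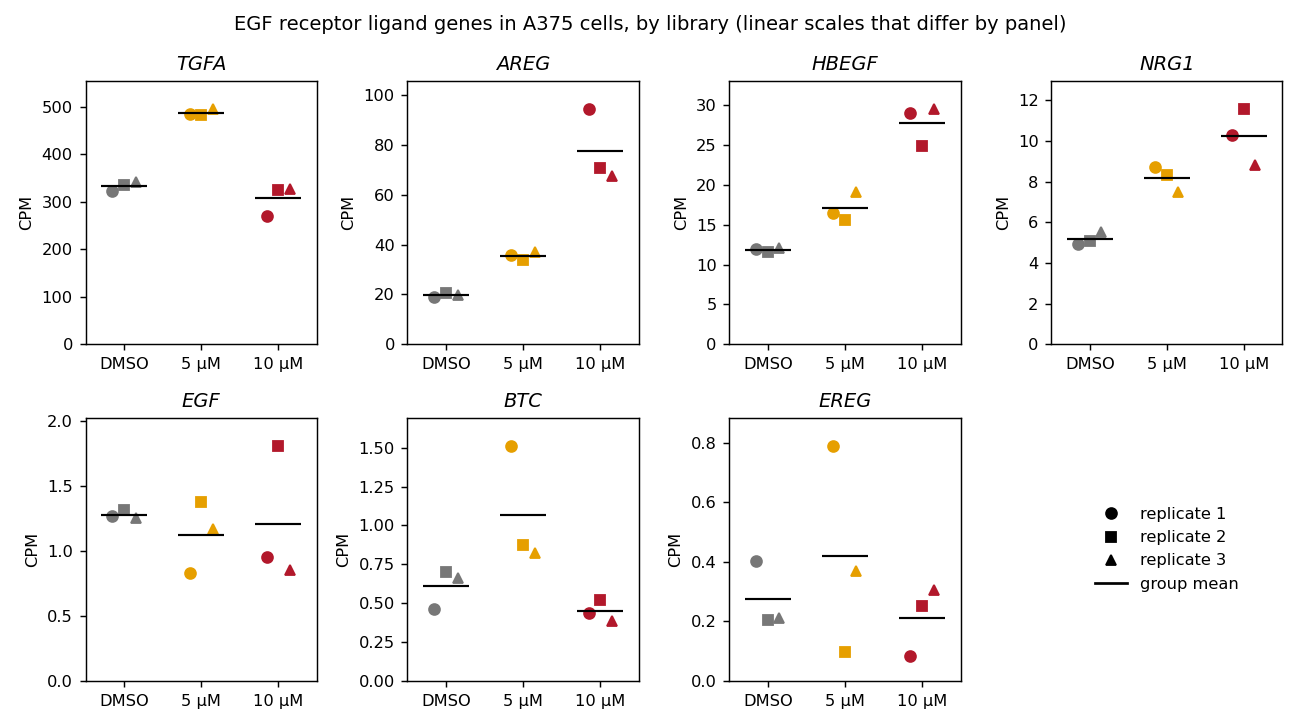
CPM of each ligand gene (vertical axes, linear and different in each panel) in the 3 libraries of DMSO, 5 µM and 10 µM TP-472, with a mark for each replicate and a line at the group mean. AREG and HBEGF step up with dose, and NRG1 is higher at both doses, with the difference between the doses not called. TGFA is highest at 5 µM (482 to 495 CPM), and the libraries of EGF and EREG overlap between groups.

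Read against the whole table, 2 of the 7 ligand genes were called higher at 5 µM, AREG and NRG1, where 2.14% of all genes tested were called higher. None of the 7 was called lower there, against 2.72% of all genes. At 10 µM against DMSO, 3 of 7 were called higher (AREG, HBEGF and NRG1) against 8.57% of all genes, and 0 of 7 lower against 10.5%. From 5 µM to 10 µM, 2 of 7 were called higher (AREG and HBEGF) against 1.42% of all genes, and 1 of 7 lower (TGFA) against 2.59%. With an adjusted p under 0.05 and no fold minimum, HBEGF and TGFA joined the genes higher at 5 µM, for 4 of 7, where the same rule took 4.4% of all genes tested. The median log2 fold change of the 7 was 0.60 at 5 µM and -0.09 at 10 µM, beside 0.0054 and 0.011 over all genes tested. The median at 5 µM is that of EREG, a value with an SE of 0.80 that did not pass the test. The median at 10 µM is that of EGF, since BTC, EREG and TGFA had values below it.

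**Figure D2:**
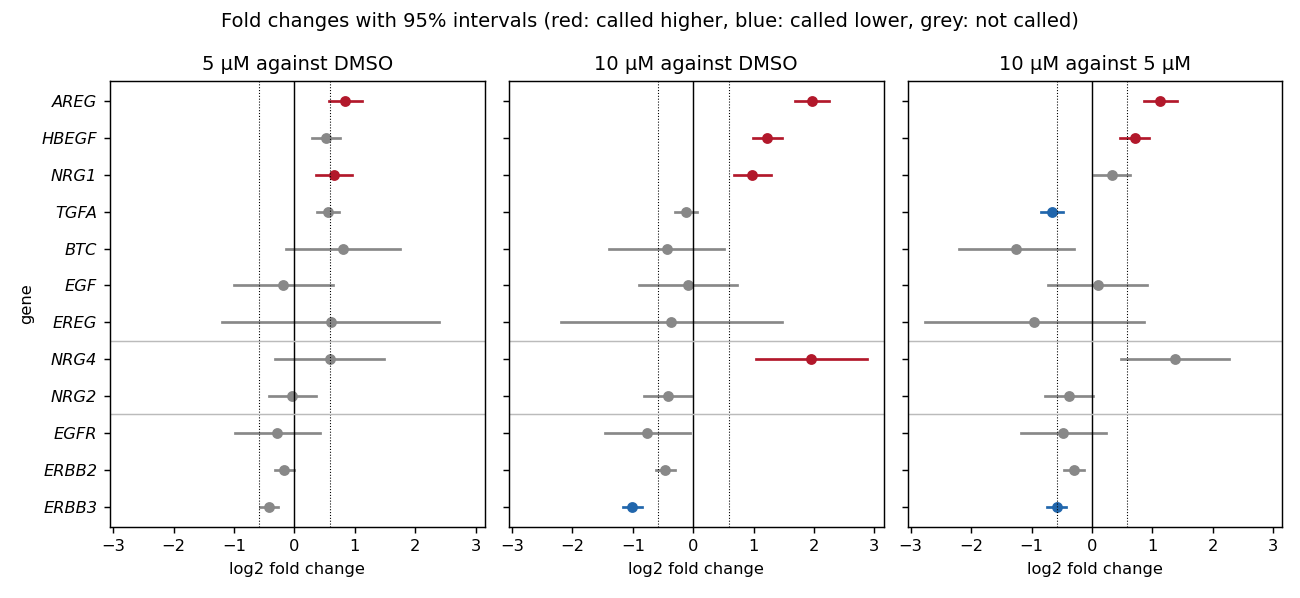
Log2 fold changes (horizontal axis) with 95% intervals for the 7 ligand genes, NRG4, NRG2 and the receptors EGFR, ERBB2 and ERBB3 in the 3 comparisons, coloured by call, with dotted lines at the fold minimum of 1.5. AREG is called higher in all 3 panels (0.84, 1.97 and 1.13), and TGFA has values of opposite sign at 5 µM against DMSO (0.55) and 10 µM against 5 µM (-0.66).

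The levels of different ligand transcripts were compared as CPM per kb of exon, which allows for the length of each gene. With DMSO the order was TGFA (69.4 ± 1.95 CPM per kb, SD, n = 3), AREG (16.0 ± 0.590), HBEGF (4.99 ± 0.117), NRG1 (0.563 ± 0.0331), EGF (0.262 ± 0.00684), BTC (0.216 ± 0.0452) and EREG (0.0593 ± 0.0242). Each of TGFA, AREG, HBEGF and NRG1 was clear of its neighbours in every DMSO library, and EGF and BTC lay close together, though their DMSO libraries did not overlap. At 5 µM BTC (0.379 ± 0.137) lay above EGF (0.230 ± 0.0561), and at 10 µM the libraries of EGF and BTC overlapped. At 10 µM TGFA (64.1 ± 6.75) and AREG (62.6 ± 11.8) overlapped too, but only through replicate 1, where AREG (76.2) lay above TGFA (56.3). In replicates 2 and 3 TGFA (67.8 and 68.2) lay above AREG (57.2 and 54.6). The top place at 10 µM thus depended on the library. The level of NRG1 depends on the length taken: over its longest transcript it was 0.875, 1.38 and 1.73 CPM per kb in the 3 groups, in the same place in the order. TGFA depends on it too, at 77.3, 113 and 71.3 CPM per kb over its longest transcript, while AREG was unchanged. The overlap of TGFA and AREG at 10 µM, and the shares and ratios given next, were taken with all exons.

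TGFA thus made up 75.9% ± 0.257 of the summed ligand transcripts per kb with DMSO, 73.1% ± 0.892 at 5 µM and 46.0% ± 6.43 at 10 µM (SD, n = 3). The share of AREG was 17.5% ± 0.380, 20.6% ± 0.554 and 44.6% ± 6.58, and that of HBEGF 5.45% ± 0.202, 5.14% ± 0.429 and 8.33% ± 0.728. The sum of the 7 was 91.5 ± 2.45 CPM per kb with DMSO, 139 ± 3.46 at 5 µM and 140 ± 5.33 at 10 µM. The sums at the 2 doses therefore overlapped while their makeup differed: TGFA per AREG was 4.37, 4.22 and 4.43 in the DMSO libraries, 3.51, 3.71 and 3.43 at 5 µM, and 0.739, 1.19 and 1.25 at 10 µM. The lowest ratio belongs to 10 µM replicate 1, and the other 10 µM libraries were also below all 5 µM libraries.

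**Figure D3:**
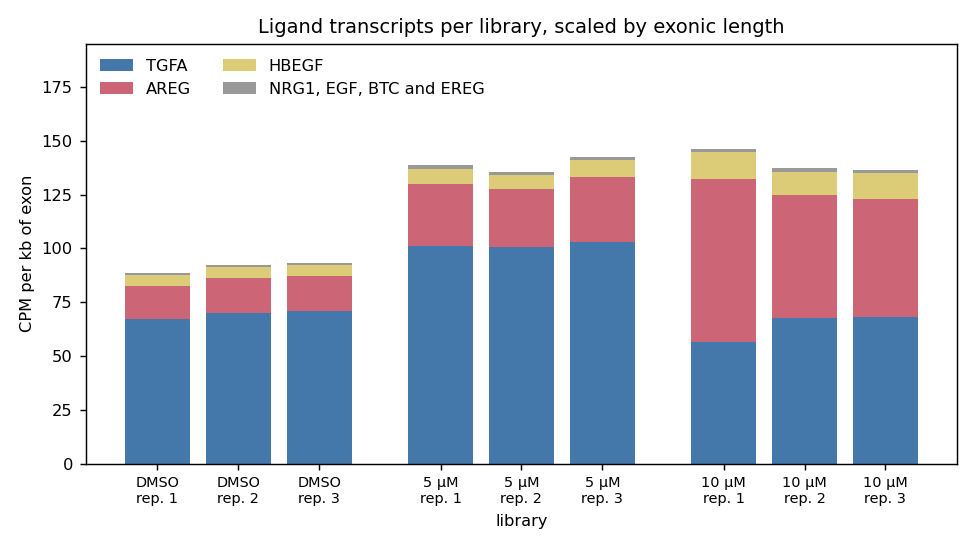
Stacked bars of ligand transcripts (CPM per kb of exon, axis from 0) in each of the 9 libraries, split into TGFA, AREG, HBEGF and the other 4 ligand genes together. The total height is similar at 5 µM and 10 µM (means of 139 and 140), while the AREG segment grows from a mean share of 20.6% to 44.6%.

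Of the 4 other ligand genes of the family, EPGN (0 to 13 counts) and NRG3 (0 to 14 counts) did not pass the filter. NRG4, a ligand of ERBB4, was called higher at 10 µM, from 0.705 ± 0.280 to 2.75 ± 1.05 CPM (SD, n = 3), with a log2 fold change of 1.96 (SE 0.41, adjusted p = 0.00480). Its highest library was 10 µM replicate 1, at 3.97 CPM, and without it the change was 1.60. NRG2 stood at 12.5 ± 0.653 CPM with DMSO and 9.31 ± 2.31 CPM at 10 µM, a log2 fold change of -0.42 (adjusted p = 0.0914).

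No receptor gene was called higher. EGFR, the receptor of AREG, HBEGF and TGFA, held 45.3, 53.0 and 46.8 CPM with DMSO, 37.8, 39.9 and 41.6 CPM at 5 µM and 12.4, 36.2 and 37.3 CPM at 10 µM. All treated libraries lay below all DMSO libraries, and the lowest by far was 10 µM replicate 1. The log2 fold change at 10 µM was -0.76 (SE 0.32, adjusted p = 0.0930), and without that library it was -0.40 (adjusted p = 0.000303), under the fold minimum. ERBB3, the receptor of NRG1, fell at 10 µM, from 213, 219 and 215 CPM with DMSO to 163, 152 and 169 CPM at 5 µM and 104, 111 and 106 CPM at 10 µM. Its log2 fold change was -0.42 at 5 µM (adjusted p = 0.00387, under the fold minimum) and -1.01 at 10 µM (SE 0.07, adjusted p = 4.86e-06). ERBB2, the partner receptor with no known ligand, had a log2 fold change of -0.46 at 10 µM (SE 0.07, adjusted p = 0.000924), under the fold minimum. ERBB4, the other receptor for NRG1, HBEGF, BTC and EREG, had 0 to 12 counts and was not tested. Of the 3 receptor genes tested, 0 were thus called at 5 µM and 1 was called lower at 10 µM, with median log2 fold changes of -0.28 and -0.76. Over all genes 2.14% were called higher and 2.72% lower at 5 µM, and 8.57% higher and 10.5% lower at 10 µM. ERBB3 was also lower at 10 µM than at 5 µM (-0.59, adjusted p = 0.000869), a call lost without 10 µM replicate 1 (-0.57).

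A list of 10 genes held those that act for or, as TIMP3, against the release of ligands from the membrane. Of these, 0 were called at 5 µM and 2 were called lower at 10 µM, with median log2 fold changes of -0.13 and -0.35. At 5 µM 2.14% of all genes were called higher and 2.72% lower. Over all genes 10.5% were called lower at 10 µM, about 1 in 10, so the count of this list is near that share. The called genes were ADAM9, a metalloprotease (-0.89, SE 0.15, adjusted p = 0.00134), and TIMP3, an inhibitor of ADAM17 (-0.59, SE 0.05, adjusted p = 3.73e-05). Without 10 µM replicate 1, ADAM9 was called and TIMP3, at -0.58, was under the fold minimum. ADAM17, the main sheddase of AREG, HBEGF and TGFA, held 76.1, 75.9 and 74.0 CPM with DMSO and 27.4, 58.5 and 66.3 CPM at 10 µM (-0.57, adjusted p = 0.106). Its low value is again that of replicate 1, and without that library the change was -0.27 (adjusted p = 0.00167), under the fold minimum. Between the doses 0 of the 10 were called, where 1.42% of all genes were called higher and 2.59% lower.

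Of 11 genes listed as restraints on the receptors, 1 was called lower at 5 µM and 4 at 10 µM. The median log2 fold changes were -0.07 and -0.16, and 5 of the 11 had values above 0 at each dose. Over all genes 2.72% and 10.5% were called lower at the same doses. ERRFI1, which encodes the EGFR inhibitor MIG6, was lower at both doses, at -0.74 (SE 0.09, adjusted p = 0.000650) and -0.79 (SE 0.09, adjusted p = 9.61e-05). Its libraries held 389 to 399 CPM with DMSO, 231 to 243 CPM at 5 µM and 200 to 250 CPM at 10 µM. LRIG3 (-1.06, adjusted p = 0.000500), PTPRJ, a receptor phosphatase (-1.12, adjusted p = 0.000648), and LRIG1, which promotes receptor degradation (-0.65, adjusted p = 0.0428), were lower at 10 µM. LRIG3 and PTPRJ were also called lower at 10 µM than at 5 µM, the 2 such calls of this list, against 2.59% of all genes. Without 10 µM replicate 1 the calls at 10 µM against DMSO were 3 lower and 1 higher: LRIG1 was lost (-0.42) and CBLB, a ubiquitin ligase, was gained (0.64), and between the doses 0 were lower and CBLB was higher. Of 8 adaptor genes, among them GRB2, SHC1 and SOS1, 0 were called in any of the 3 comparisons, with median log2 fold changes of -0.03 and -0.33 against DMSO. Among all genes tested, 2.14% were called higher and 2.72% lower at 5 µM, and 8.57% and 10.5% at 10 µM. Between the doses it was 1.42% and 2.59%. A list of 8 genes is too short to tell 0 calls from those shares.

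Of 16 genes known to follow ERK activity, 2 were higher and 2 lower at 5 µM, and 2 were higher and 4 lower at 10 µM, with median log2 fold changes of -0.13 and -0.40. Over all genes 2.14% were higher and 2.72% lower at 5 µM, and 8.57% higher and 10.5% lower at 10 µM, so the higher calls at 10 µM are near the overall share. EGR1, an immediate early transcription factor, rose from 5.91 to 7.76 CPM with DMSO to 25.7 to 29.5 CPM at 5 µM and 120 to 126 CPM at 10 µM, by 2.09 (adjusted p = 1.08e-05) and 4.21 (SE 0.12, adjusted p = 3.87e-08) on the log2 scale. DUSP5, an ERK phosphatase, rose at 10 µM (0.74, adjusted p = 0.000185). SPRY4, a feedback inhibitor of receptor signalling, was lower at 5 µM (-0.92, adjusted p = 0.000889) and 10 µM (-0.86, adjusted p = 0.000311), and the transcription factor ETV4 was lower at 10 µM (-0.79, adjusted p = 0.000178). The other calls, named after their values were seen, were SPRY1 (-1.15 and -1.36, lower at both doses), CCND1 (0.66, higher at 5 µM) and ETV1 (-0.70, lower at 10 µM). The ETV1 call was lost without 10 µM replicate 1 (-0.54). Between the doses 3 were higher (EGR1, DUSP5 and IER3) and 0 lower, against 1.42% and 2.59% of all genes. The IER3 call (0.64) was lost without 10 µM replicate 1 (0.42).

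**Figure D4:**
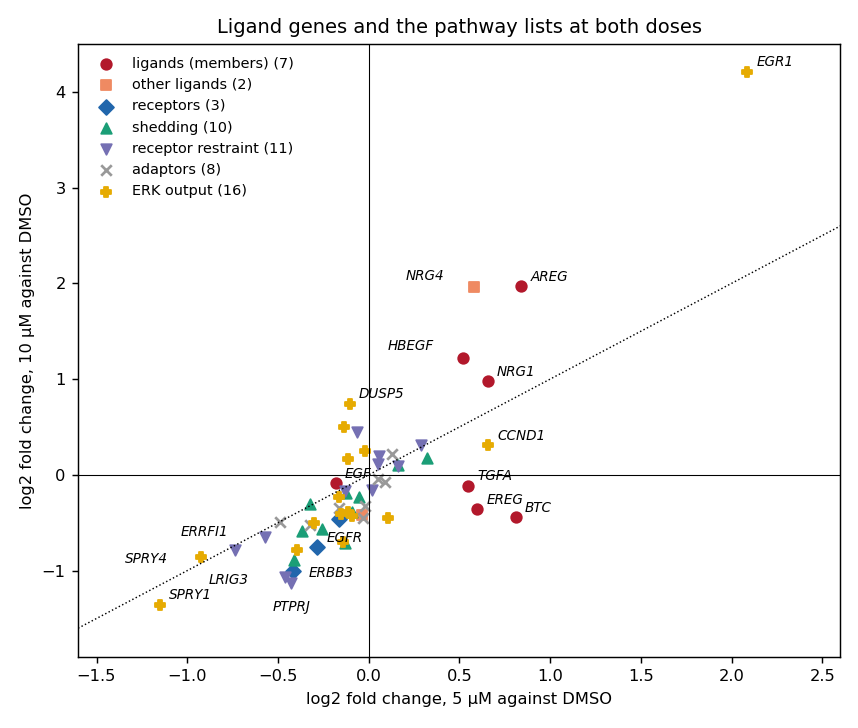
Log2 fold change at 10 µM against DMSO (vertical) and at 5 µM against DMSO (horizontal) for the 7 ligand genes and the listed genes of the pathway, with a dotted line where both are equal; both axes share the DMSO libraries. AREG, HBEGF and NRG1 lie above zero on both axes, and TGFA, BTC and EREG lie right of zero and below it. The labelled receptor and restraint genes lie below zero on both axes, while 5 of the 11 restraint genes had values above zero at each dose.

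Of 6 listed genes along the stretch of chromosome 4 that holds AREG, 5 could be tested. AREG and PARM1, which begins 138 kb beyond BTC, were called higher at both doses, against 2.14% and 8.57% of all genes. PARM1, which encodes a mucin-like membrane protein, held 0.865, 1.11 and 1.21 CPM with DMSO, 3.46, 3.16 and 3.65 CPM at 5 µM and 1.63, 5.75 and 4.26 CPM at 10 µM. Every treated library lay above every DMSO library, and 10 µM replicate 1 was the lowest of the treated ones. Its log2 fold changes were 1.69 (adjusted p = 0.0250) and 1.87 (SE 0.40, adjusted p = 0.00520). The other listed genes were not called with AREG. EREG and BTC missed the test, EPGN was not tested, and MTHFD2L had log2 fold changes of 0.04 and -0.31 (adjusted p = 0.939 and 0.272).

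Over the 9 libraries, AREG and HBEGF had nearly the same profile (Pearson r of log2(CPM + 0.5) = 0.979), NRG1 followed AREG with r = 0.918, and TGFA followed BTC with r = 0.823, while TGFA and AREG gave -0.273. These values describe 3 groups at 3 levels more than 9 separate points, and they share libraries and depth. Of 13677 genes whose mean reached 1 CPM, those most like AREG were DUSP14 (r = 0.997), CHCHD7 (0.994) and CCL3 (0.993). CCL3, a chemokine, was also the gene most like HBEGF (0.996), ahead of MPHOSPH10 (0.991) and SARS (0.989), and its mean level was 0.0146 CPM with DMSO, 0.768 CPM with 5 µM and 3.96 CPM with 10 µM TP-472. NRG1 was matched best by AKIRIN1 (0.984), CD24 (0.981) and GBA2 (0.980). TGFA, with its peak at 5 µM, was matched by TTC23 (0.977), BACE1 (0.975) and FHOD3 (0.971), the latter with mean levels of 25.8, 31.0 and 23.7 CPM. EGF was matched by UCP3 (0.956), CPA4 (0.954) and SLC9A8 (0.941), whose group means, like those of EGF, hardly differed, so this likeness is one of single libraries.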

How the data were processed

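RNA of A375 cells was sequenced in 9 libraries, 3 per group, from stranded cDNA. The authors deposited expected counts per gene symbol, not scaled to library size. The submitters' processing notes name Bowtie2 2.1.0, RSEM 1.2.15 and hg38, with annotation and strand setting not given in the sources used here. Both oligo-dT selection and removal of ribosomal RNA are named in the labels, and 8.20% to 19.9% of counts fell on ribosomal RNA genes.

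Values were rounded to whole numbers (10.6% to 13.8% per library were not whole) and tested by the quasi-likelihood F test of edgeR 4.0.16 (R 4.3.3) on 1 fit of the 3 groups, after filterByExpr and TMM scaling (factors 0.957 to 1.029). P-values were Benjamini-Hochberg adjusted over all 16417 genes tested, and a call needed a fold of 1.5 or more with an adjusted p below 0.05. SE = |log2 fold change| / √F. The p-values measure the spread between these libraries. CPM uses TMM-scaled library sizes. Exonic length is the union of exons in GENCODE release 29. Scripts were tested on simulated data. DESeq2 1.42.0 and limma-voom (limma 3.58.1), other scalings, filters and thresholds, and fits without each library were alternatives. The list counts without 10 µM replicate 1 were an alternative chosen after seeing the data.

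The ligand genes and lists were chosen with earlier results of these data known, and the lists were written from general knowledge. Genes were named by rule. The rule took all ligand genes of the family, the ERBB receptors and the listed genes of the chromosome 4 stretch. It also took up to 4 called genes of each other list with the smallest p at 10 µM, and the 3 genes most correlated with each ligand gene of at least 1 CPM. Others (ADAM17, CBLB, IER3, S100A1, CD68 and those marked) were named after their values were seen. The result for 1 marker gene is not reported. Libraries were not treated as paired by replicate number in the main fit.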

Additional observations from a re-analysis of the deposited data

Results flagged for a closer look

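TGFA drew attention because its values at the 2 doses had opposite signs and the difference between the doses passed the test. BTC and EREG had opposite signs too, but their differences did not pass it. Against DMSO it changed by 0.55 on the log2 scale at 5 µM and had a value of -0.12 at 10 µM, and the test of 10 µM against 5 µM gave -0.66 (edgeR, adjusted p = 0.00129), with all 10 µM libraries below all 5 µM libraries. The value at 10 µM against DMSO did not pass the test (adjusted p = 0.311). Without 10 µM replicate 1 the difference between the doses was -0.58 (adjusted p = 1.11e-08), under the fold minimum.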

How the results depend on the processing

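AREG, HBEGF and NRG1 were called higher at 10 µM, and no ligand gene was called lower against DMSO, under all 19 settings run. At 5 µM the number called higher was 1 at an adjusted p under 0.01, 4 with no fold minimum and 1 to 2 with a library left out, with NRG1 the gene that was lost and HBEGF and TGFA those gained. The number lower at 10 µM than at 5 µM was 2 with DESeq2, which added BTC, and 0 to 1 with a library left out, 0 without 10 µM replicate 1. Leaving out libraries turned the sign of uncalled values: EGF ranged from -0.51 to 0.11 at 10 µM and from -0.32 to 0.29 between the doses, and EREG from -0.24 to 1.07 at 5 µM and from -0.71 to 0.022 at 10 µM. BTC and EREG gave no value where 1 CPM in 3 libraries was asked. With a replicate block AREG changed by 0.84 and 1.96, and the block changed no call of a ligand gene. Deviations of same-numbered libraries had correlations of -0.0838 to 0.147 in the comparisons with DMSO and 0.0202 to 0.0236 between the doses. In each comparison 1 to 4 of 6 libraries correlated best with their own number, which does not settle whether they were paired.

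Over all genes, the 352 higher and 447 lower at 5 µM became 591 and 729 in a fit of only those groups, 722 and 954 with no fold minimum and 197 and 277 at an adjusted p under 0.01, with 197 to 218 higher and 283 to 309 lower without any 1 of the DMSO libraries and 575 and 666 without 10 µM replicate 1. The 233 and 425 between the doses became 101 and 165, 471 and 908, and 99 and 224 in the same order, with 418 higher by DESeq2, 118 to 121 higher and 258 to 272 lower without any 1 of the 5 µM libraries, and 155 higher without DMSO replicate 2, and the 1407 and 1730 at 10 µM became 2687 and 2947 with no fold minimum. The fold changes of EREG, BTC and EGF rest on 4 to 94 counts per library, which limits what can be said of them.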
